A study of Mus musculus with 11 samples.

Results

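The muscle miRNA genes of the miR-1, miR-133 and miR-206 families were followed through the reprogramming of mouse fibroblasts. They were taken by name from a table of 3859 small RNA genes, in which 6 of 7 had a row (Mir206, Mir133b, Mir1a-1, Mir133a-2, Mir133a-1 and Mir1b); the seventh, Mir1a-2, was not analysed here. Each of 11 stages was measured in 1 small RNA library. These were uninduced embryonic fibroblasts (MEF), days 1 to 8 after doxycycline was added, an established line of induced pluripotent stem cells (iPSC) and an embryonic stem cell (ESC) line. All were labelled Mbd3f/-, that is with 1 floxed and 1 deleted copy of Mbd3, which encodes a NuRD component. The MEF carried a doxycycline-inducible cassette for Oct4, Klf4, Sox2 and Myc (OKSM), and the labels call them secondary MEF. The column of the ESC library carried the name V6.5, a mouse ESC line, so its genotype is unclear. Induction began in serum with LIF at reduced oxygen and went on in a medium based on serum replacement. There LIF was combined with 2i, small molecules that block MEK and GSK3, whose starting day the protocols give differently. Irradiated human foreskin fibroblasts served as feeders from day 3 on and for both lines, so feeders, medium and day cannot be told apart. Since no stage was repeated, the p-values for trends reflect how far single libraries lie from a line, and variation between cultures was not measured.

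These families are the classical muscle miRNAs. Their genes lie in pairs, each pair with 1 gene of the miR-1 or miR-206 type and 1 of the miR-133 type, and in muscle they are switched on by myogenic regulators such as MyoD, myogenin, MEF2 and SRF. In myoblasts miR-1 and miR-206 are known for promoting differentiation, in part by repressing Hdac4 and Pax7, and miR-133 for sustaining proliferation and repressing SRF. MiR-206 is largely restricted to skeletal muscle, while miR-1 and miR-133a are also abundant in heart.

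Mature sequences of the families are shown with the seed, bases 2 to 8, in capitals. They come from RefSeq (GRCm38.p6), where 3 of the 6 genes had a mature sequence. They are given 5′ to 3′. That of Mir499, a muscle miRNA of another family that moved the other way, is added for its different seed.
mmu-miR-206-3p: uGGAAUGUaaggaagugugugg
mmu-miR-206-5p: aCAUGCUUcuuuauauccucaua
mmu-miR-1a-1-5p: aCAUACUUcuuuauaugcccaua
mmu-miR-133b-3p: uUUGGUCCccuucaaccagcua
mmu-miR-133b-5p: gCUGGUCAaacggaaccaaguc
mmu-miR-499-5p: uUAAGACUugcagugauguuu
The mature miR-1a-3p, miR-133a and miR-1b are named only, and their seeds were not compared here. The 5p arms of Mir206 and Mir1a-1 shared 20 of 23 bases. Counted from 1 at the 5′ end, with the Mir206 base first, they differed by G5A, C17G and U19C. The first of these lies in the seed of these 5p arms, and no difference between the 3p seeds of miR-1 and miR-206 is read from it.

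The loci are given on GRCm38. Mir206 (chromosome 1, 20679010 to 20679082) and Mir133b (20682769 to 20682887) lie on the same strand with 3686 bases between them, both within exons of the long noncoding RNA gene Gm28653. Mir1a-1 (chromosome 2, 180389048 to 180389124) and Mir133a-2 (180398379 to 180398482) lie on the same strand, 9254 bases apart. Mir133a-1 (chromosome 18, 10782909 to 10782976) lies in introns of Mir133a-1hg and, on the opposite strand, of Mib1. Mir1b (10785446 to 10785567) lies on the strand of Mib1 and covers Mir1a-2 on the opposite strand. Whether the authors' counting used strand is not given in the sources used here, so reads of Mir1b and Mir1a-2 cannot be told apart. Mir133a-1 and Mir133a-2 encode the same main mature miRNA, as do Mir1a-1 and Mir1a-2.

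Levels were in FPKM, a unit that corrects for transcript length and sequencing depth. Low values were whole multiples of the worth of 1 read, so read numbers could be recovered. Of 35 values of 5 members between 0.5 and 100 reads, 35 were whole within 0.05 read, with the worth of 1 read taken from other transcripts of the same length. Mir133a-1 is annotated at 68 nt, but its steps on day 3 were 23.15 FPKM, against 46.7 FPKM for other transcripts of that length. Under the fragment model such steps would belong to a transcript of 87 nt. Whether a step of Mir133a-1 is 1 whole read was not tested. Its reads were taken from its own steps, which is no independent check. Its read numbers, their intervals and the sums that include them depend on this choice. The implied depth was lowest in MEF, 1.15e+07 mapped reads, and highest on day 7, 2.17e+07 mapped reads. It rests on an assumed fragment model. The table took 22.8% of these reads on day 7 and 27.9% on day 8, against 45.2% to 59.6% in the other libraries. Intervals below are 95% intervals of counting error only, since PCR copies were not marked. Of the fibroblast and mesenchymal miRNAs 7 of 8 were above 0 in MEF, with Mir143 listed at 0, and of the pluripotent miRNAs 11 of 12 were above 0 in both lines, with Mir295 listed at 0.

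Mir206, Mir1a-1, Mir133a-2, Mir133a-1 and Mir1b fell over the course, and in FPKM most of their loss came in the first 2 days. In log2(FPKM + 10) the fall went on. The differences to MEF on days 2 and 8 were -3.89 and -7.98 for Mir1a-1 and -4.78 and -8.64 for Mir133a-2. For Mir133a-1 they were -4.82 and -9.63, and for Mir1b -4.01 and -6.69. For Mir206 they were -3.60 and -11.61, the latter from a value listed at 0. The call of Mir133b, with few reads, depended on the filter. Together the 6 transcripts held 5331 reads in MEF, 1239 on day 1, 307 on day 2, 162 on day 3, 118 on day 4, 41 on day 5, 55 on day 6, 11 on day 7, 28 on day 8, 65 in iPSC and 42 in ESC. Scaled to the implied depth (RPM) this was 463 in MEF (451 to 476), 100 on day 1 (94.5 to 106), 22.7 on day 2 (20.2 to 25.3) and 1.37 on day 8 (0.911 to 1.98). Each transcript was below 10% of its MEF level on day 2 and on every later day. In bulk RNA, fewer cells with these miRNAs and less of them per cell cannot be told apart.

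Mir206, the skeletal muscle gene, was at 31309 FPKM in MEF, 6356 on day 1, 2577 on day 2, 230 on day 3, 205 on day 4, 50.9 on day 6 and 50.4 in iPSC, and was listed at 0 on days 5, 7 and 8 and in ESC. The reads behind these values were 485, 106, 47, 6, 5 and 1 in MEF and on days 1, 2, 3, 4 and 6, and 1 in iPSC. The MEF library was the highest, and from day 5 on no library held more than 1 read. Mir206 was 4.93-fold lower on day 1 than in MEF (3.98 to 6.14), 11.2-fold lower on day 3 than on day 2 (4.78 to 32.1), and at least 287-fold lower on day 8 than in MEF, taking 3 reads as the limit that 0 reads allow. That limit was 109 FPKM on day 8 and 126 FPKM in ESC.

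Mir133b, its neighbour, had far fewer reads. It was at 689 FPKM in MEF, from 46 reads, 223 on day 1, from 16 reads, and 17.8 on day 3, from 2 reads, and was listed at 0 in the other 8 libraries. It was 3.10-fold lower on day 1 than in MEF (1.72 to 5.86) and at least 27.2-fold lower on day 8. The limit that 0 reads allow lay between 23.8 FPKM on day 7 and 41.5 on day 5 among the days at 0 after day 2.

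Mir1a-1, on chromosome 2, was at 49796 FPKM in MEF, 11964 on day 1, 3348 on day 2, 1153 on day 3, 563 on day 4, 513 on day 5, 437 on day 6, 88.2 on day 7, 188 on day 8, 1084 in iPSC and 362 in ESC. It was lower on each of days 1 to 7 than on the stage before, and both lines were above days 7 and 8. Its day 8 level was 265-fold lower than in MEF (121 to 724). From MEF to day 8 the reads were 897, 232, 71, 35, 16, 10, 10, 3 and 6.

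Mir133a-2, its neighbour, was at 34801 FPKM in MEF, 7181 on day 1, 1259 on day 2, 501 on day 3, 347 on day 4, 148 on day 5, 180 on day 6, 24.2 on day 7, 77.1 on day 8, 267 in iPSC and 104 in ESC. It was 4.85-fold lower on day 1 than in MEF (4.30 to 5.47) and 5.70-fold lower on day 2 than on day 1 (4.36 to 7.56). Its day 8 level, from 6 reads, was 451-fold lower than in MEF (207 to 1230).

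Mir133a-1, on chromosome 18, was at 60284 FPKM in MEF, 11374 on day 1, 2120 on day 2, 625 on day 3, 618 on day 4, 216 on day 5, 154 on day 6, 62.0 on day 7, 65.9 on day 8, 274 in iPSC and 254 in ESC. It was 5.30-fold lower on day 1 than in MEF (4.69 to 6) and 914-fold lower on day 8 (312 to 4440), where 3 reads were left of 1546.

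Mir1b was at 11503 FPKM in MEF, 2983 on day 1, 705 on day 2, 452 on day 3, 421 on day 4, 230 on day 5, 316 on day 6, 22.0 on day 7, 101 on day 8, 162 in iPSC and 135 in ESC. It kept more of its MEF level than the other members through the middle of the course, 3.66% on day 4 and 2.75% on day 6, where Mir1a-1 was at 1.13% and 0.878% and Mir133a-1 at 1.03% and 0.255%. On day 8 it was 113-fold lower than in MEF (65.9 to 214).

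**Figure D1:**
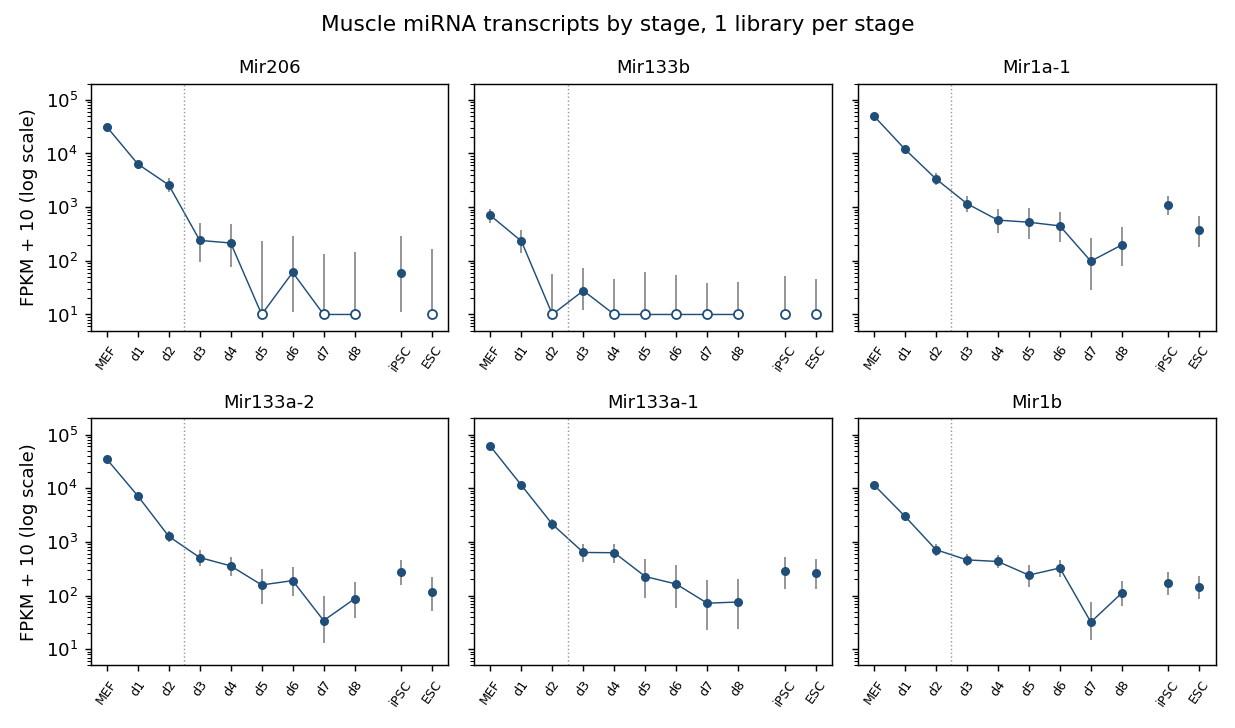
FPKM + 10 on a log axis for the 6 muscle transcripts in MEF, on days 1 to 8 (d1 to d8) and in the iPSC and ESC lines, with 1 library per stage. Bars are 95% counting intervals, open circles are values listed at 0, and the dotted line marks where human feeders came in, before day 3; Mir206 is listed at 0 on days 5, 7 and 8, against 31309 FPKM in MEF.

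The slope of log2(FPKM + 10) per day was fitted with limma over 9 libraries, MEF placed at day 0, for all 1419 transcripts with a mean of at least 10 FPKM. All 6 members passed this filter, Mir133b only through its levels in MEF and on day 1, where it was high. At a Benjamini-Hochberg adjusted p below 0.05 all 6 fell, beside 10.6% of all tested transcripts. With the 895 miRNA transcripts tested alone all 6 fell, beside 17.7%. Without the filter 5 fell, and the share over all transcripts was not taken for that fit. The median slope of the members was -1.04, and -1.08 without Mir133b at a mean of at least 100 FPKM, beside 0.025 over all tested transcripts. On this scale a difference between values above 0 is understated for a low transcript, while a fall to 0 depends on the added 10 FPKM. Mir206 had the second steepest negative slope of the table, -1.50 ± 0.18 (SE, limma adjusted p = 0.000721). Its size rests in part on the zeros of Mir206, set at 10 FPKM, below the worth of 1 read (34.2 FPKM on day 7). With 1 FPKM, 0.5 read or 100 FPKM added in place of 10 FPKM it was -1.95, -1.37 or -1.02. The slopes of Mir133a-1, Mir133a-2 and Mir1a-1 were -1.16 ± 0.13, -1.08 ± 0.14 and -0.99 ± 0.13, with limma adjusted p = 0.000598, 0.00125 and 0.00111. Mir1b had a slope of -0.83 ± 0.13 (adjusted p = 0.00317).

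Mir133b, with the fewest reads, had a slope of -0.66 ± 0.19 (limma adjusted p = 0.0317). Its call was lost without the filter (adjusted p = 0.0655), and also without MEF (slope -0.43, adjusted p = 0.138), day 1 (0.0918), day 5 (0.0514), day 6 (0.0598) or day 7 (0.0547). Within days 3 to 8 alone the slope of Mir133a-1 was -0.72 (adjusted p = 0.0256) and 1 of 6 members fell, beside 5.64% of all tested transcripts, with a median slope of -0.62. The slopes of Mir206, Mir1a-1, Mir133a-2, Mir1b and Mir133b in that span were -0.96, -0.59, -0.65, -0.60 and -0.21, with adjusted p = 0.104, 0.0724, 0.0796, 0.148 and 0.296.

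**Figure D2:**
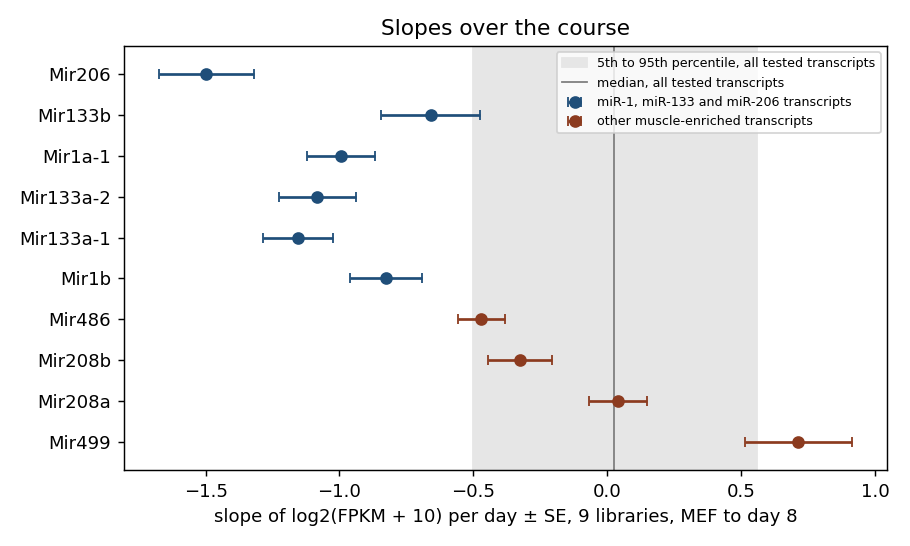
Slope of log2(FPKM + 10) per day with its standard error over the 9 libraries from MEF to day 8, for the 6 muscle transcripts and 4 other muscle-enriched transcripts. The shaded band spans the 5th to 95th percentile of all 1419 tested transcripts, from -0.50 to 0.56; the 6 members lie below it, between -1.50 and -0.66, and Mir499 lies above it at 0.71.

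At single steps no test was possible. In this and every other count the 6 members are not 6 separate measures. Reads may be shared between Mir133a-1 and Mir133a-2, and between Mir1a-1 and Mir1b, which covers Mir1a-2. On day 1, 4 of 6 members were at least 4-fold lower than in MEF (Mir206, Mir1a-1, Mir133a-1 and Mir133a-2), beside 6.48% of all tested transcripts. Mir1b and Mir133b were at 25.9% and 32.3% of MEF. On day 3, the first stage on human feeders, 5 of 6 were lower than on day 2, beside 51.4%, and the exception, Mir133b, rested on 2 reads against 0. On day 8, 6 of 6 were at least 4-fold lower than in MEF, beside 17.0%.

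Day 7 was the lowest stage for Mir1a-1, Mir133a-2, Mir133a-1 and Mir1b, with 3, 2, 3 and 3 reads. Mir133a-1 also had 3 reads on day 8, so its order between these days rests on depth alone. Mir1b was at 22.0 FPKM on day 7 (4.54 to 64.3), against 316 on day 6 (212 to 454) and 101 on day 8 (54.0 to 173). The day 7 and day 8 libraries had the lowest share of reads in the table; its part in these levels was not tested. After scaling each library to its median ratio over 787 transcripts the median slope of the members was -1.05. That scaling multiplies the folds below MEF by 1.92 on day 1, 2.27 on day 2, 1.59 on day 8, 2.77 in iPSC and 2.55 in ESC.

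In the established lines 6 of 6 members were at least 4-fold lower than in MEF in both, beside 7.75% of all tested transcripts. Mir206 was at 1 read in iPSC and 0 in ESC, and Mir133b at 0 in both. Mir1a-1 was 46.0-fold lower in iPSC (30.9 to 71.4) and 138-fold lower in ESC (74.5 to 288) than in MEF. Mir133a-1 was 220-fold lower in iPSC (116 to 482) and 237-fold lower in ESC (129 to 496). On day 8 Mir1a-1 was 5.77-fold lower than in iPSC (2.31 to 17.2), and 3.31-fold lower after median-ratio scaling (1.32 to 9.86). For Mir133a-2 the difference was 3.46-fold (1.27 to 10.9) and after scaling 1.98-fold (0.728 to 6.25). For Mir133a-1, from 3 and 9 reads, it was 4.16-fold (1.04 to 23.9) and after scaling 2.39-fold (0.596 to 13.7), so for both copies of Mir133a the scaled intervals included no difference. The table held 27.9% of the implied reads on day 8, against 54.1% in iPSC; the part of this in the differences was not tested. For Mir1b the difference was 1.60-fold (0.709 to 3.65). Mir1a-1 was also 3.00-fold lower in ESC than in iPSC (1.39 to 6.99). Between day 8 and ESC the counting intervals of Mir1a-1, Mir133a-2, Mir133a-1 and Mir1b all included no difference, as for Mir1b at 1.33-fold (0.592 to 3.05). Each line was 1 library, so these intervals compare libraries and not lines.

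Read shares were set against each other for the 2 copies of Mir133a, and for Mir1b, which covers Mir1a-2, against Mir1a-1. Mir133a-1 took 50.3% of the reads of Mir133a-1 and Mir133a-2 in MEF (95% Wilson interval 48.6 to 52.1) and 49.7% over all 11 libraries (48.1 to 51.2). These shares rest on the steps of Mir133a-1 itself, 23.15 FPKM per read on day 3. Transcripts of its annotated length gave 46.7 FPKM, which would lower its share. With the steps of Mir133a-1 itself, no difference in reads between these loci was detectable at this depth. How the authors placed reads that match both is not given in the sources used here. Their separate slopes are uncertain for the same reason. Those of Mir1b and Mir1a-1 are uncertain too, since Mir1b covers Mir1a-2, which encodes the same main mature miRNA as Mir1a-1. The share of Mir1b in the reads of Mir1b and Mir1a-1 varied more. It was 67.5% over days 3 to 8 (61.4 to 73), from 166 reads of Mir1b and 80 of Mir1a-1, against 48.3% over MEF and days 1 and 2 (46.3 to 50.4), from 1123 and 1200 reads. This difference was not tested over libraries. Its lowest value over the course was 45.8% on day 2 (37.5 to 54.3), its highest 75.0% on day 4 (63.2 to 84.0), and it was 37.5% in iPSC (24.2 to 53.0) and 60% in ESC (40.7 to 76.6). Over the same days Mir133a-1 took 44.5% of its pair (36.9 to 52.4).

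**Figure D3:**
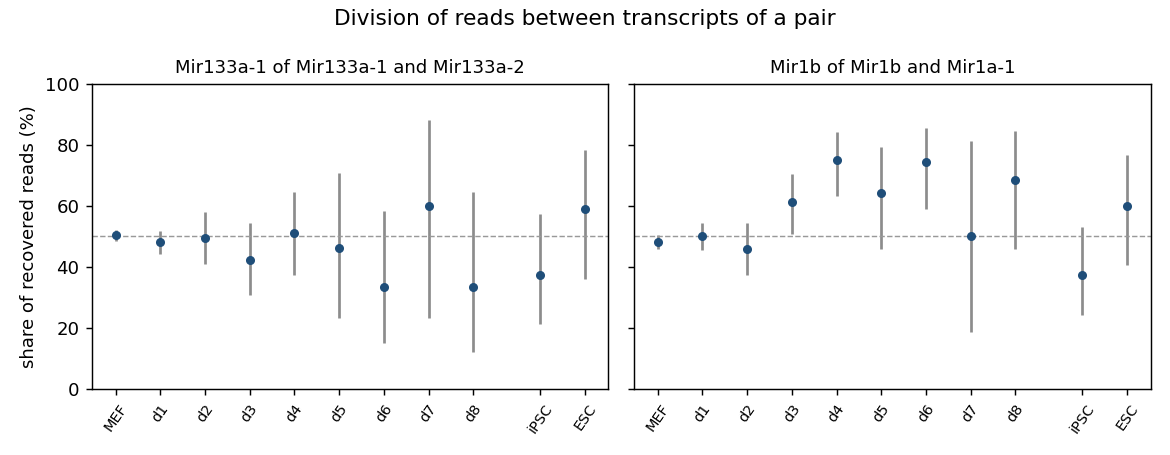
Share of recovered reads in each library that belonged to Mir133a-1 of Mir133a-1 and Mir133a-2 (left) and to Mir1b of Mir1b and Mir1a-1 (right), with 95% Wilson intervals and a dashed line at 50%. With the reads of Mir133a-1 taken from its own steps, the left shares include 50% in every interval. The right share is 75.0% on day 4, against 48.1% in MEF.

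Neighbours at a locus were compared by the slope of their log2 ratio over the 9 libraries, with exact two-sided permutation tests over 362880 orders and adjustment over 3 pairs. The log2 ratio of Mir206 to Mir133b was 5.49 in MEF, 4.77 on day 1 and 3.11 on day 3, the stages at which both had reads. On days 5, 7 and 8 both were listed at 0 and the pseudocount sets the ratio to 0. The slope of -0.84 per day (exact permutation p = 0.00939, adjusted p = 0.0219) follows from these zeros, and no difference between these genes is read from it. The ratio of Mir1a-1 to Mir133a-2 had a slope of 0.09 (exact permutation p = 0.102, adjusted p = 0.102), and its log2 ratio ranged from 0.52 to 1.73 over the course. On chromosome 18 the ratio of Mir1b to Mir133a-1 had a slope of 0.33 (exact permutation p = 0.0146, adjusted p = 0.0219), with a log2 ratio of 0.55 on day 8, against -2.39 in MEF. That call was lost without MEF (adjusted p = 0.0918), day 1 (0.0525) or day 8 (0.0598), and with a pseudocount of 1 FPKM (0.0764) or 0.5 read (0.0611). It was kept with a pseudocount of 100 FPKM (0.00354) and without any 1 of days 2 to 7.

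The other muscle-enriched miRNAs did not move together. Of 5 listed genes 4 had a row and were tested, of which 1 fell, 1 rose and 2 did neither, with a median slope of -0.14. Mir486, encoded in the Ank1 gene and also abundant in red blood cells, fell by 0.47 ± 0.09 per day (limma adjusted p = 0.00575). It was at 43030 FPKM on day 8, against 649014 in MEF. Mir499, encoded in an intron of the myosin gene Myh7b, rose by 0.71 ± 0.20 per day (limma adjusted p = 0.0317), beside 12.5% of all tested transcripts that rose. It was at 722 FPKM in MEF, 1006 on day 1, 7625 on day 2, 17366 on day 3, 70878 on day 4, 53402 on day 5, 96873 on day 6, 27331 on day 7, 21837 on day 8, 9828 in iPSC and 13516 in ESC. Days 4 to 6 were the highest, and day 6 was 134-fold higher than MEF (79.8 to 246), from 2383 and 14 reads. The call was lost without MEF (adjusted p = 0.132), day 1 (0.0926) or day 6 (0.0637) and without the filter (0.0675), and within days 3 to 8 the slope was -0.05. Its seed, shown above, differs from those of miR-206 and miR-133b.

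**Figure D4:**
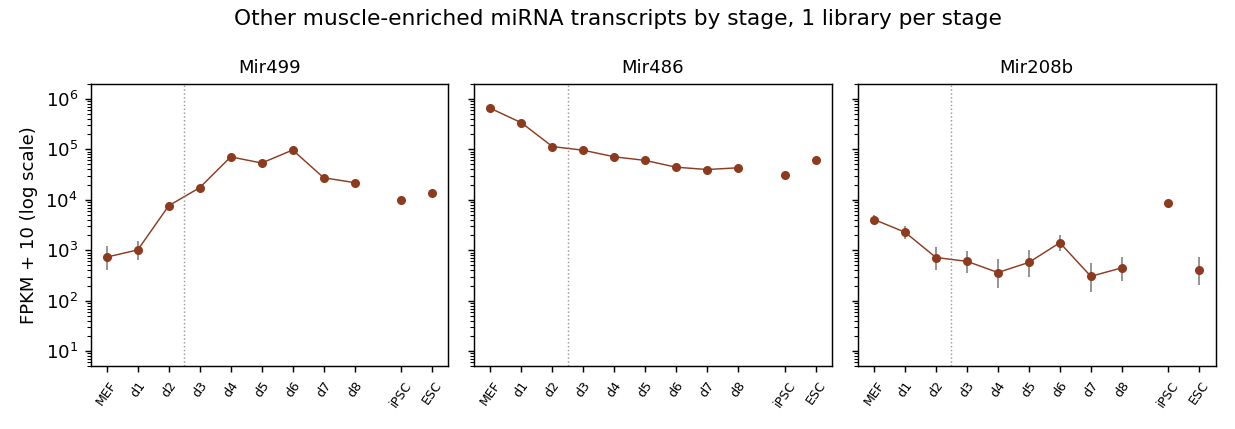
FPKM + 10 on a log axis for Mir499, Mir486 and Mir208b by stage, with 95% counting intervals where wider than the points and 1 library per stage. Mir499 is highest on day 6 at 96873 FPKM, Mir486 is lower on day 8 (43030 FPKM) than in MEF (649014), and Mir208b is at 8798 FPKM in iPSC and 398 in ESC.

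Of 20 miRNAs described in mouse myoblast differentiation, outside the muscle families, 18 were tested, of which 11 fell, 0 rose and 7 did neither, with a median slope of -0.31. Beside them 10.6% of all tested transcripts fell, and 17.7% of miRNA transcripts tested alone. The 11 include both copies of Mir181a, Mir181b and Mir29b, with like slopes within each, and are not 11 separate measures. For Mir181a the slopes were -0.342 and -0.343. The steepest of the list was Mir675, processed from the imprinted H19 RNA, at -1.05 ± 0.09 (limma adjusted p = 0.000127). Mir214 and Mir181b-1 had slopes of -0.57 ± 0.10 and -0.51 ± 0.09. Mir675 was also the transcript whose profile was most like the mean of the 6 members, with a Pearson correlation of 0.980 over 11 libraries among 889 other miRNA transcripts. Next were Mir486 (0.952), Mir1298 (0.951), Mir483 of the Igf2 gene (0.950) and Mir218-1 (0.938). These libraries share the course and its depth, so the correlations are descriptions. Mir675 was at 20.3 FPKM on day 8, against 11519 in MEF, and at 236 in iPSC and 141 in ESC.

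Markers of other cell types also moved over the course, where 10.6% of all tested transcripts fell and 12.5% rose. Of the 6 blood cell miRNAs 2 fell, the myeloid Mir223 and Mir511, both listed at 0 in iPSC and ESC, and 0 rose. The summed level of that list was 91180 FPKM on day 8, against 272783 in MEF, and 777877 in iPSC. That sum was mostly Mir142 in MEF (232146 FPKM) and iPSC (563551 FPKM). Mir150 was higher on day 8 (44607 FPKM) and in iPSC (214088 FPKM) than in MEF (2493 FPKM), without passing the slope test. Of the 8 fibroblast and mesenchymal miRNAs 6 fell and 0 rose, with Mir143 listed at 0 in MEF. Without Mir143 the summed level of the other 7 was 93.3% of MEF on day 1, 79.3% on day 2 and 8.82% on day 8, where the 6 muscle transcripts together were at 21.3%, 5.31% and 0.229% of their summed FPKM in MEF. With Mir143 it was 157%, 109% and 20.3%. The sum of the other 7 was mostly Mir10b and Mir21, at 3.88e+07 and 1.54e+07 of 6.41e+07 FPKM in MEF. On day 2 these were at 3.74e+07 and 1.15e+07. The rest lost more by day 2, so an early fall was not particular to the muscle transcripts. Mir214 was at 20652 FPKM on day 2, against 287077 in MEF, Mir145 at 37886, against 349820, and Mir199a-1 at 1217590, against 6216420. In either direction 0 of 8 neural and 0 of 2 smooth muscle miRNAs passed the test. All 12 pluripotent miRNAs rose. The endothelial Mir126 had a slope of 0.05 (limma adjusted p = 0.738). Their part in the muscle result was not tested.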

How the data were processed

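The table the authors deposited holds FPKM, 1 column for each of the 11 libraries and 0 for samples outside the series. Tools listed without a role, per the submitters' processing notes, are Cufflinks 2.2.1, Bowtie2 2 and CASAVA 1.8.2, and the build is mm10. Annotation, filters and the handling of reads with several matches: not given in the sources used here. Of the IDs, 3712 were found in GENCODE vM21 and 147 were not. Relative depth came from ratios of values below 200 FPKM, and the worth of 1 read from their steps. The implied depth assumes fragments of 200 ± 80 nt, a model that came within 10% for 677 of 687 transcripts with a step. No count test was run on reads recovered from FPKM.

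Slopes were fitted with limma 3.58.1 in R 4.3.3 (two-sided, 7 residual and 2.53 prior degrees of freedom). Other tests and figures used Python 3.11.15 with scipy 1.17.1. The named genes were all members, the marker lists and the 5 miRNA transcripts most like the members' mean profile. The members and lists were chosen with earlier results of these data known. The Mir1b to Mir133a-1 ratio, the pseudocount of 0.5 read, the scaled folds and the fibroblast sum without Mir143 were chosen after seeing the data.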

Additional observations from a re-analysis of the deposited data

How the results depend on the processing

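All 6 members fell in every fit tried except without filter, with a filter of 100 FPKM, within days 3 to 8, with a pseudocount of 100 FPKM and without MEF or days 1, 5, 6 or 7. Leaving out 1 library gave between 5 and 6 falling members and a median slope between -1.20 and -0.88. Within days 3 to 8, a fit of fewer libraries, it was 1 member and a median of -0.62, beside -1.04 over the course. The cause was not tested. In the other exceptions Mir133b lost its call or had no test. The slope of Mir499 within days 3 to 8 was -0.05. For Mir206 to Mir133b the slope, which the zeros set, was between -0.95 and -0.71 without 1 library. With a pseudocount of 1 FPKM, 0.5 read or 100 FPKM it was -0.86, -0.56 or -0.73 (exact permutation adjusted p = 0.0857, 0.0611 or 0.00109). For Mir1a-1 to Mir133a-2 it was -0.00 with a pseudocount of 100 FPKM and between 0.06 and 0.12 without 1 library. The counts at least 4-fold lower on day 8 or in both lines were 6 under quantile and median-ratio scaling and the 3 other pseudocounts. The count lower on day 3 was 5 under both scalings and was not run with other pseudocounts. The ratio of Mir1a-2 to Mir133a-1 was not run. No paired analysis was possible because each stage has 1 library. Values of 3 reads or fewer limit what days 5 to 8 can show.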

Other observations

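Mir208b, encoded in the slow myosin gene Myh7, differed between the libraries of the established lines, each measured once. It was at 8798 FPKM in iPSC (203 reads, 7630 to 10100), against 398 in ESC (11 reads, 199 to 712), and at 438 on day 8 (14 reads), against 4052 in MEF (73 reads). Its slope over the course was -0.33 (limma adjusted p = 0.082), and without day 6 it was -0.38 (0.0478). Mir208a, encoded in the cardiac myosin gene Myh6, was listed at 0 in MEF and on all days but day 5 (1 read), and had 4 reads in iPSC and 5 in ESC. The mmu-mir-133c row was listed at 0 in all 11 libraries.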
